A study of Mus musculus and Homo sapiens with 41 samples.

Results

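Cholesterol and fatty acid synthesis genes are the subject here: 31 mouse genes for the enzymes of both pathways, their transcriptional regulators and a sterol carrier. They were listed by name as a pathway and matched by gene symbol, a rule that uses no measured value, although earlier results of these data were known when the list was made. All 31 were found among the 53756 genes listed for granulocyte-monocyte progenitors (GMPs), and all 31 were among the 20531 genes that reached a normalized count of 10 in at least 2 of 4 libraries. In the table of the 416b cell line, 30 of the 31 were found among 13237 genes, Scd1 being the one not listed, and 29 were among the 11835 genes with a mean of at least 10, since Scd2 fell below it.

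The study asked what the transcription factor PLZF, encoded by Zbtb16, does in myeloid progenitors. GMPs were sorted from bone marrow of C57BL/6 mice, either WT or Zbtb16lu/lu (the luxoid allele, a loss-of-function mutation carried by all donor cells). Both genotypes had first been grafted as total bone marrow from Cd45-2 donors into lethally irradiated C57BL/6 Cd45-1 hosts and GMPs were taken months later, so every GMP library comes from transplanted marrow of reconstituted mice. The age of the mice is not given for these libraries. Each genotype has 2 library columns, named here WT 1, WT 2, Zbtb16lu/lu 1 and Zbtb16lu/lu 2, and WT 1 and Zbtb16lu/lu 2 carry the same date in their names. Nothing says whether these columns came from separate mice, so p-values measure only the spread between these libraries. The second experiment used 416b, a mouse Cd34+ myeloid progenitor line in suspension culture, carrying a lentiviral Empty vector or PLZF-Flag, with 1 library per condition. The 416b ratios therefore have no replicate check.

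Cells make cholesterol and fatty acids from cytosolic acetyl-CoA. The mevalonate pathway turns acetyl-CoA into isoprenoid units, the sterol branch joins these to squalene and lanosterol and trims lanosterol to cholesterol, and fatty acid synthase builds palmitate, which elongases and desaturases then modify. Sterol regulatory element binding proteins (SREBPs), encoded by Srebf1 and Srebf2, activate most of these genes. SCAP escorts them out of the endoplasmic reticulum when sterols are low, and INSIG proteins hold SCAP back when sterols are high.

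The targeted gene moved as labelled in both experiments. Zbtb16 had 705 and 828 normalized counts in WT and 269 and 369 in Zbtb16lu/lu, a log2 fold change of -1.28 ± 0.20 (SE). Its limma adjusted p was 0.30, and that of DESeq2 on recovered reads was 4.4e-05. In 416b it went from 382 to 2541 normalized counts, 6.63-fold, with PLZF-Flag. Depth was 37562999 to 40170636 reads for GMPs, 54528802 for Empty vector and 19995440 for PLZF-Flag. GMP markers were abundant in GMPs, with Mpo at 477326 to 552003 normalized counts and the summed lymphoid markers at 7.72 to 11.3. The 416b libraries held part of that 7-gene list. Kit had 6434 and 7267 normalized counts in Empty vector and PLZF-Flag, Cd34 had 11059 and 8823, and Fcgr3 3108 and 3085. Of the granule genes, Ctsg had 2318 and 1676, Prtn3 470 and 435 and Mpo 12.1 and 3.30, and Elane was not listed. Itga2b, an integrin of megakaryocytes and early progenitors, had 22446 and 22145.

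Markers of other cell states had different levels among the GMP libraries, where 21.7% of all genes tested lay higher in Zbtb16lu/lu without overlap and 22.1% lower. The summed level of 7 neutrophil maturation genes was 2194 to 3618 in WT and 4042 to 6704 in Zbtb16lu/lu, 7 of 7 having a positive log2 fold change and 5 of 7 having no overlap between genotypes. The 5 monocyte markers were also all higher without overlap, summing to 79067 and 90850 in WT against 112396 and 107174 in Zbtb16lu/lu. Mast cell and basophil markers were negative for 4 of 4, with 2 lower without overlap (Gata2 at -0.27 and Ms4a2 at -0.47), and summed to 8123 and 8691 in WT against 7897 and 6069 in Zbtb16lu/lu. Erythroid and megakaryocyte markers were negative for 5 of 6, with 1 lower without overlap (Gata1), and their sum was 2205 in WT 1 and 4646 in WT 2 against 3011 and 1712 in Zbtb16lu/lu, Pf4 having 216 normalized counts in WT 1 and 1306 in WT 2. Of 6 cycling genes 4 were negative, and Top2a, Ccnb1 and Cdk1 were lower without overlap. None of these markers passed the limma test, and DESeq2 called Ltf (adjusted p = 0.043) and Irf8 (adjusted p = 0.0019), both higher. The part of these other cell states in the values below was not tested, and in bulk samples fewer cells of a type cannot be told apart from less RNA per cell.

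Promoter sequences were available for 24 of the 31 genes, as 30 windows of 300 bases from 250 bases before to 50 after a start site, credited to RefSeq on GRCm38.p6. Fdps, Fdft1, Sqle, Stard4, Scd1, Scd2 and Fads1 were not in that table. Shown are 4 of the 5 genes with the widest genotype differences relative to their spread, each with 1 listed window; Srebf1, which has 3, is given by counts only. The sequences run 5′ to 3′ on the strand of the gene, and capitals mark every match on either strand to the sterol regulatory element TCACNCCAC, to the E-box (letters CACGTG, the core site of many helix-loop-helix factors), to the CCAAT box and to the GC-box (letters GGGCGG, the site of Sp factors). A match on the other strand shows as its reverse complement, and no overlap between matches was removed.
Hmgcs1, chr13:119690101-119690400, + strand: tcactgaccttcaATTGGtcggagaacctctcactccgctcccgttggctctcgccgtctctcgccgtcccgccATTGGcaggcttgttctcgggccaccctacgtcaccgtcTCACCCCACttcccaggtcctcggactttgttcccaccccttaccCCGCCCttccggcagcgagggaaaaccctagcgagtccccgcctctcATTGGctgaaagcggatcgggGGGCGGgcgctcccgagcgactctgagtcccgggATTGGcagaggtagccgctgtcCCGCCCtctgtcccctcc
Tm7sf2, chr19:6067801-6068100, - strand: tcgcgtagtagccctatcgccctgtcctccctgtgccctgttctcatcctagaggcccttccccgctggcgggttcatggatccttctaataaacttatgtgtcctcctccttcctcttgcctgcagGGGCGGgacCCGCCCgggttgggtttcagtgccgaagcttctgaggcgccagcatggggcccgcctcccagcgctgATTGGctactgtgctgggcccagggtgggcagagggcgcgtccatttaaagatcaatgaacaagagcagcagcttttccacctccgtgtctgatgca
Insig1, chr5:28071162-28071461, + strand: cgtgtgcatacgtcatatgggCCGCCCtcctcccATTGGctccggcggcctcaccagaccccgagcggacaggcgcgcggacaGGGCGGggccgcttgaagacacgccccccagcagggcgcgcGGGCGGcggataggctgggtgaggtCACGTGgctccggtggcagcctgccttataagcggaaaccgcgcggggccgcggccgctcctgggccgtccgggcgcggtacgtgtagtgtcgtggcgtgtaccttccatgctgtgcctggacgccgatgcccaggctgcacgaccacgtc
Srebf2, chr15:82147019-82147318, + strand: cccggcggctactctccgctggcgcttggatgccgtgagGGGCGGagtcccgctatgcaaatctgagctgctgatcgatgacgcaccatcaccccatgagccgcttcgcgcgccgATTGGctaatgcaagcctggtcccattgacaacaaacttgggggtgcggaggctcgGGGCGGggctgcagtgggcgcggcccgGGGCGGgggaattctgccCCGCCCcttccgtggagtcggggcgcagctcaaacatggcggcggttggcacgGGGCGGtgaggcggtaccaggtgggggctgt

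Letters of the sterol regulatory element occurred in 1 of the 24 genes, Hmgcs1, where the match starts 137 bases before the start site. They occurred in 1.44% of all 27025 genes in the table. CCAAT, the site of NF-Y, was present for 19 of 24 genes (79.2%) and 41.1% of all genes, and the GC-box for 20 of 24 genes (83.3%) and 38.2% of all genes. The E-box was present for 5 of 24 genes (20.8%) and 8.09% of all genes. Counted by window, those shares over all 32851 windows were 1.24%, 37.4%, 35.7% and 7.15%, in the same order. Hmgcs1 held 4 CCAAT and 3 GC-box matches, Srebf2 held 1 and 5, Tm7sf2 held 1 and 2, and Insig1 held 1 and 3 together with an E-box. The windows of Srebf1 held 1, 0 and 1 CCAAT matches. A match describes letters in the window only, and genes with several windows have more chances to hold one. The shares over all genes were not limited to expressed genes, whereas all 31 members passed the count filter in GMPs.

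None of the 31 genes passed the test between genotypes in GMPs, and their median log2 fold change was 0.02, beside -0.01 over all genes tested. With limma and Benjamini-Hochberg adjustment over all 20531 genes at 0.08, 0% of genes passed, and adjusted p of the 31 ran from 0.42 to 0.98. At an unadjusted limma p under 0.05, 4 of them were higher in Zbtb16lu/lu (Tm7sf2, Insig1, Srebf1 and Srebf2) and 1 was lower (Hmgcs1). Over all 20531 genes tested, 1130 were higher and 898 lower at that threshold. DESeq2 called 220 of all genes, 1.07%, and 0 of the 31, with a lowest adjusted p of 0.16 for Srebf1, and edgeR called 0 genes in all. Both Zbtb16lu/lu libraries lay above both WT libraries for 10 of the 31, where 21.7% of all genes did, and below them for 5, where 22.1% of all genes did. An exact permutation test of 2 libraries against 2 cannot give a two-sided p under 0.333 for any single gene.

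**Figure D1:**
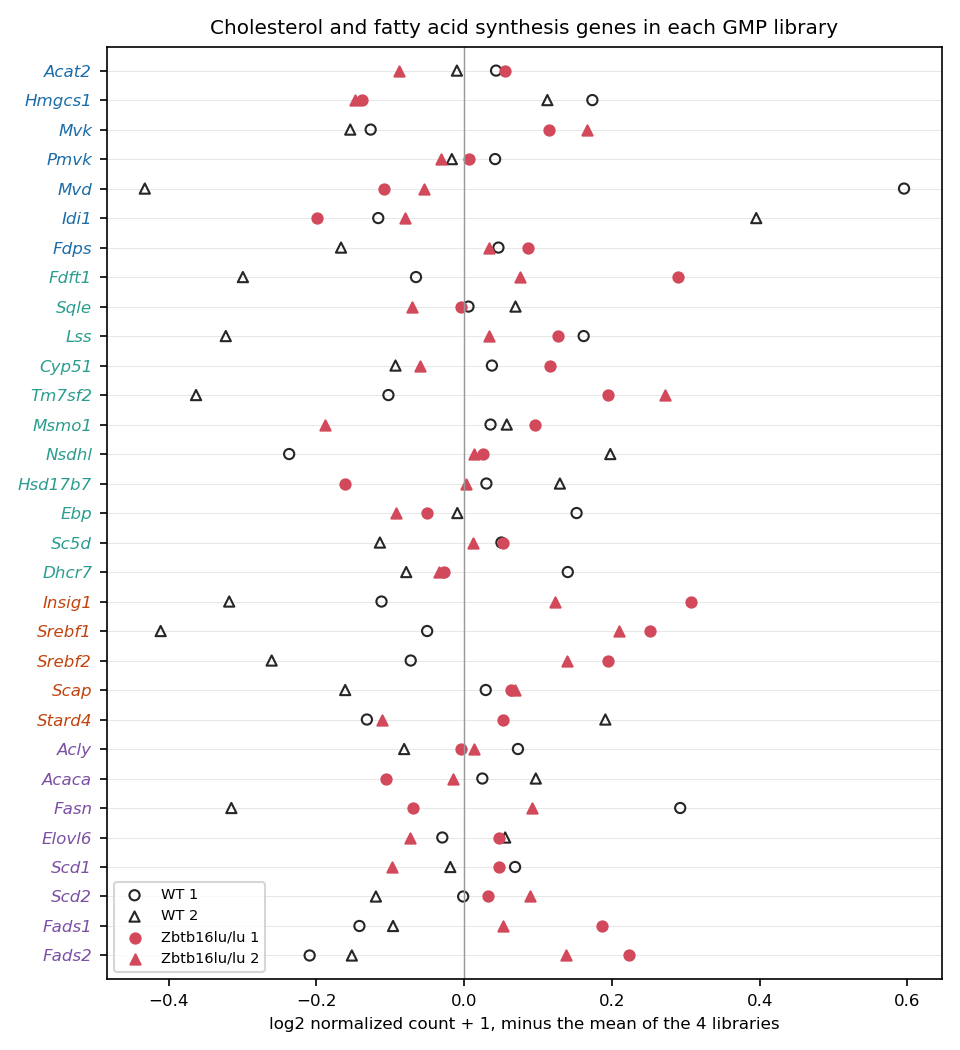
Each point is 1 GMP library, placed by its log2 normalized count + 1 after subtraction of the gene's mean over the 4 libraries, with open symbols for WT and filled symbols for Zbtb16lu/lu. The filled symbols lie to the right of the open ones for Tm7sf2, Insig1, Srebf1 and Srebf2 and to the left for Hmgcs1, and the WT libraries of Mvd stand farthest apart.

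Of the 5 regulators and transport genes, 4 lay higher in both Zbtb16lu/lu libraries, where 21.7% of all genes did, and 0 passed the test. Their median log2 fold change was 0.33, and it was 0.09 after a joint correction for the GC content and length of the transcripts. Srebf1 (chromosome 11, 60199089 to 60222581 of GRCm38) makes the SREBP-1 proteins, which act mainly on fatty acid genes. It had 3006 and 2341 normalized counts in WT and 3705 and 3599 in Zbtb16lu/lu. The genotypes did not overlap, and the log2 fold change of 0.46 ± 0.14 (SE) had an adjusted p of 0.42.

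Srebf2 (chromosome 15, 82147181 to 82205379), whose SREBP-2 product acts mainly on cholesterol genes, had 2331 and 2046 normalized counts in WT and 2804 and 2699 in Zbtb16lu/lu. All mutant values lay above the WT values, and the log2 fold change was 0.33 ± 0.12 (adjusted p = 0.47). Insig1 (chromosome 5, 28071363 to 28078662), the sterol-dependent anchor of SCAP, had 1468 and 1272 in WT against 1963 and 1727 in Zbtb16lu/lu. The gap between genotypes was wider than that within either genotype, at 0.43 ± 0.14 on the log2 scale (adjusted p = 0.43). Scap itself had 5303 and 4648 against 5428 and 5452, a log2 fold change of 0.13 ± 0.12, and 13.2% of its exon bases are shared with 5830462I19Rik on the opposite strand. Stard4, a carrier of cholesterol between membranes, overlapped between genotypes, with 1036 and 1296 in WT against 1177 and 1051 in Zbtb16lu/lu.

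The correction for GC content and length moved members in both directions, 18 nearer to 0 and 13 farther from it. GC content was 58.4%, 57.9% and 59.1% for Srebf1, Srebf2 and Scap. After that correction, the log2 fold changes were 0.20 for Srebf1, 0.09 for Srebf2 and -0.16 for Scap, whereas that of Insig1 (48.2% GC) was 0.42. The same correction gave -0.19 for Hmgcs1, 0.41 for Tm7sf2, 0.23 for Fads2 and 0.16 for Fads1. It took Mvd from -0.16 to -0.46, Pmvk from -0.03 to -0.25 and Fasn from 0.02 to -0.21, all farther from 0. The median went from -0.03 to -0.16 for the mevalonate pathway, from 0.04 to 0.08 for the sterol branch and from 0.02 to 0.01 for fatty acid synthesis, and over all genes from -0.01 to -0.04. Across the 31 genes, the genotype difference had a Pearson r of 0.45 with GC content, and the difference between WT 1 and WT 2 had r = 0.60, as a description over genes that share the same libraries. Over 20056 genes those values were 0.33 and 0.26. The correction does not separate GC content from length, and the part of either in the differences was not tested.

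In the mevalonate pathway 2 of 7 genes had a positive log2 fold change and 5 a negative one, 0 passed, and the median was -0.03, or -0.16 after the GC content and length correction. Hmgcs1 (chromosome 13, 119690379 to 119708260), which joins acetyl-CoA to acetoacetyl-CoA, had 2052 and 1967 normalized counts in WT and 1654 and 1642 in Zbtb16lu/lu. Its log2 fold change of -0.29 ± 0.12 (limma adjusted p = 0.49) was the lowest of the members in this fit, and the replicates of each genotype lay close together. Idi1 lay below Hmgcs1 with edgeR and with DESeq2, at -0.30 against -0.28 in both. After the GC content and length correction Mvd (-0.46) and Pmvk (-0.25) lay below Hmgcs1 (-0.19). Of the exon bases of Hmgcs1, 12.1% are shared with Gm48342 on the opposite strand. Mvk, mevalonate kinase, moved the other way without overlap, from 521 and 511 in WT to 616 and 638 in Zbtb16lu/lu, a log2 fold change of 0.28 ± 0.15 that was 0.08 after the GC content and length correction.

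The other mevalonate genes overlapped between genotypes, and 2 of them differed widely within WT. Mvd, mevalonate diphosphate decarboxylase, had 707 and 346 normalized counts in WT and 434 and 450 in Zbtb16lu/lu, so both mutant libraries lay between the WT libraries. Idi1, isopentenyl diphosphate isomerase, had 247 and 352 in WT against 233 and 253 in Zbtb16lu/lu, again with the wider spread in WT. Acat2 (acetoacetyl-CoA thiolase), Pmvk (phosphomevalonate kinase) and Fdps (farnesyl diphosphate synthase) had log2 fold changes of -0.03, -0.03 and 0.12, with WT means of 1424 ± 37.0, 581 ± 16.7 and 1699 ± 177 (SD, n = 2), and Pmvk was at -0.25 after the GC content and length correction. Fdps was at 0.23 without WT 1 and 0.01 without WT 2, and it shares 26.7% of its exon bases with Gm43738 on the same strand.

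The 11 genes of the sterol branch divided 6 to 5 by sign, with 0 past the test and a median difference of 0.04 on the log2 scale. Tm7sf2 (chromosome 19, 6062821 to 6068373), a sterol reductase that acts just after lanosterol demethylation, had 1505 and 1257 normalized counts in WT and 1850 and 1951 in Zbtb16lu/lu. These groups did not overlap, and its log2 fold change of 0.47 ± 0.14 (limma adjusted p = 0.42) was the highest of the 31. After the GC content and length correction it was 0.41, beside 0.42 for Insig1. Of the exon bases of Tm7sf2, 12.1% are shared with Vps51 on the same strand. Fdft1, squalene synthase, was also higher without overlap, with 449 and 382 in WT against 575 and 496 in Zbtb16lu/lu (log2 fold change 0.36 ± 0.18), and it shares 18.3% of its exon bases with Ctsb on the opposite strand. Whether counting used the strand is not given, so the values of the 5 genes that share 10% or more of their exon bases (Hmgcs1, Fdps, Fdft1, Tm7sf2 and Scap) can hold reads of another gene or lose reads to it.

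The other genes of this branch had log2 fold changes between -0.16 and 0.16. Sqle (squalene epoxidase), Hsd17b7 (a sterol ketoreductase) and Ebp (sterol isomerase) lay lower in both Zbtb16lu/lu libraries, with log2 fold changes of -0.08, -0.16 and -0.14. For Ebp the 4 values were 2481 and 2218 in WT against 2157 and 2093 in Zbtb16lu/lu. Lss (lanosterol synthase) had 910 and 650 in WT against 888 and 833 in Zbtb16lu/lu, so the mutant values lay inside the WT range. Cyp51, Msmo1, Nsdhl, Sc5d and Dhcr7, which demethylate, oxidize and reduce the sterol ring, overlapped between genotypes, with log2 fold changes from -0.09 for Msmo1 to 0.06 for Sc5d.

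Of the 8 fatty acid synthesis genes 5 were positive and 3 negative, 0 passed the test, and the median difference was 0.02 on the log2 scale. The desaturases Fads1 and Fads2, which insert double bonds into polyunsaturated fatty acids, were higher in both Zbtb16lu/lu libraries. Fads2 had 314 and 327 normalized counts in WT and 425 and 400 in Zbtb16lu/lu (0.36 ± 0.18), and Fads1 had 1505 and 1553 against 1889 and 1721 (0.24 ± 0.13). Neither passed, with adjusted p of 0.53 and 0.56.

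The core of the pathway differed little. Acly, which makes cytosolic acetyl-CoA from citrate, had 17820 and 16016 normalized counts in WT and 16894 and 17095 in Zbtb16lu/lu. Fasn, fatty acid synthase, had 20713 and 13593 in WT against 16120 and 18027 in Zbtb16lu/lu, with the mutant values inside the WT range. Acaca, acetyl-CoA carboxylase, was lower without overlap at -0.12 ± 0.11, and Elovl6 (elongase) and Scd1 (stearoyl-CoA desaturase) had log2 fold changes of -0.03 and -0.05. Scd2, the close copy of Scd1, had 10853 and 9999 in WT against 11106 and 11556 in Zbtb16lu/lu, a log2 fold change of 0.12 ± 0.11.

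**Figure D2:**
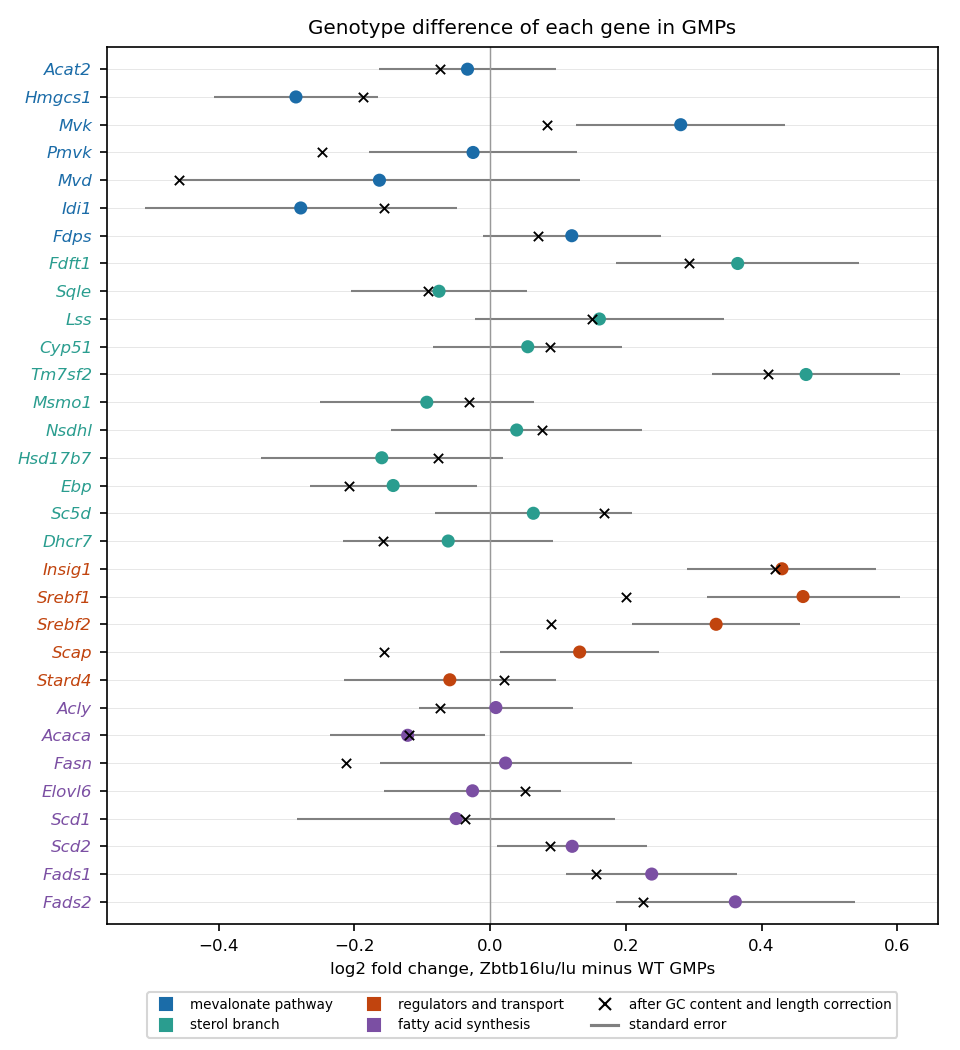
Points give the log2 fold change of each gene, Zbtb16lu/lu minus WT GMPs, with bars of 1 standard error and colors for the 4 roles, and crosses give the value after a correction for GC content and length. The points run from -0.29 for Hmgcs1 to 0.47 for Tm7sf2, and the crosses lie nearer to 0 than the points for Srebf1, Srebf2 and Insig1, by more for the SREBP genes (to 0.20 and 0.09) than for Insig1 (to 0.42), and farther from 0 for Mvd (-0.46) and Pmvk (-0.25).

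The differences varied with the libraries compared. Between the libraries that share a date (WT 1 and Zbtb16lu/lu 2) the log2 difference was 0.37 for Tm7sf2, 0.23 for Insig1, 0.26 for Srebf1, 0.21 for Srebf2 and -0.32 for Hmgcs1. Between the remaining libraries (WT 2 and Zbtb16lu/lu 1) these were 0.56, 0.63, 0.66, 0.45 and -0.25. Since the genotypes of these 5 genes do not overlap, their sign is the same in any such pair, and only the sizes differ. Leaving out 1 library at a time, Insig1 was at 0.53 without WT 1, 0.33 without WT 2, 0.34 without Zbtb16lu/lu 1 and 0.52 without Zbtb16lu/lu 2. Over the 4 fits without 1 library, 8 of the 31 genes kept their sign and stayed within 1.5 times of their value (Hmgcs1, Mvk, Fdft1, Tm7sf2, Insig1, Srebf2, Fads1 and Fads2), and the other 23 did not. Among these 23, without WT 1 and without WT 2 Srebf1 was at 0.64 and 0.28, Scap at 0.23 and 0.04, Scd2 at 0.18 and 0.06 and Ebp at -0.06 and -0.22. The median over the 31 genes was -0.04 in the first pair and 0.15 in the second. Without WT 1, 8 of the 31 passed 0.08 with limma, 7 higher (Fdft1, Lss, Tm7sf2, Insig1, Srebf1, Srebf2 and Fasn) and Idi1 lower, where 22.7% of all genes passed. Without WT 2, 4 passed (Tm7sf2 and Insig1 higher, Hmgcs1 and Mvd lower), where 13.4% of all genes passed, and 0 passed without either Zbtb16lu/lu library. In the first 2 fits the lone WT library is assumed to vary like the Zbtb16lu/lu libraries, and the median absolute log2 difference over 20056 genes was 0.28 between the WT libraries and 0.15 between those of Zbtb16lu/lu.

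In 416b cells the PLZF-Flag library differed from the Empty vector library by less than 0.5 on the log2 scale for all 29 genes with a mean of at least 10. Over all such genes, 2.18% had a log2 ratio of at least 0.5 and 4.06% one of -0.5 or less. The median log2 ratio of the 29 was -0.04, beside a median over all genes of -0.0001. The 95% exact (Clopper-Pearson) interval on the reads, which covers counting error only, lay below 0 for 11 of the 29, where 15.9% of all genes had such an interval, and above 0 for 5, where 16.1% did. These genes were deeply covered, with a median of 6578 reads in both libraries together against 2626 over all genes, which narrows their intervals.

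Of the 11 genes with an interval below 0, 6 belong to the sterol branch, as do 2 of the 5 above, and that branch holds 11 of the 29 genes. Tm7sf2 had 468 normalized counts in Empty vector against 339 in PLZF-Flag, from 773 and 205 reads, a log2 ratio of -0.46 (interval -0.69 to -0.24). Ebp had 2355 and 2032 (-0.21, -0.31 to -0.12), and Msmo1, the sterol methyl oxidase, had 6197 and 5714 (-0.12, -0.17 to -0.06). Lss, Dhcr7 and Cyp51 were lower by smaller amounts, at -0.11, -0.09 and -0.06. Nsdhl, a sterol dehydrogenase, was the member with the highest ratio, at 2455 and 2730 normalized counts (0.15, 0.07 to 0.24), and Sqle was at 0.06.

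Among the regulators, Insig1 had 2513 normalized counts in Empty vector against 2143 in PLZF-Flag, a log2 ratio of -0.23 (-0.32 to -0.14). The SREBP genes stayed close to equality: Srebf2 had 17231 and 17182, with an interval from -0.04 to 0.03, and Srebf1 had 8382 and 8163, with an interval from -0.09 to 0.01. Scap was at 0.07 (0.0033 to 0.13) and Stard4 at -0.03 (-0.10 to 0.05). In the mevalonate pathway Hmgcs1 was at -0.09 (-0.14 to -0.04), and the intervals of the other 6 genes included 0.

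Fatty acid genes went both ways by small amounts. Fasn had 18857 and 16881 normalized counts, a log2 ratio of -0.16 (-0.19 to -0.13), and Acaca had 2127 and 1958 (-0.12, -0.22 to -0.02). Acly was at 0.05 (0.02 to 0.08), Fads2 at 0.05 (0.02 to 0.08), Fads1 at -0.04 (-0.07 to -0.0098) and Elovl6 at -0.02 (-0.09 to 0.05). Scd2 rested on 9 and 5 reads, and its interval from -1.32 to 2.33 means that a difference was not detectable at this depth.

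**Figure D3:**
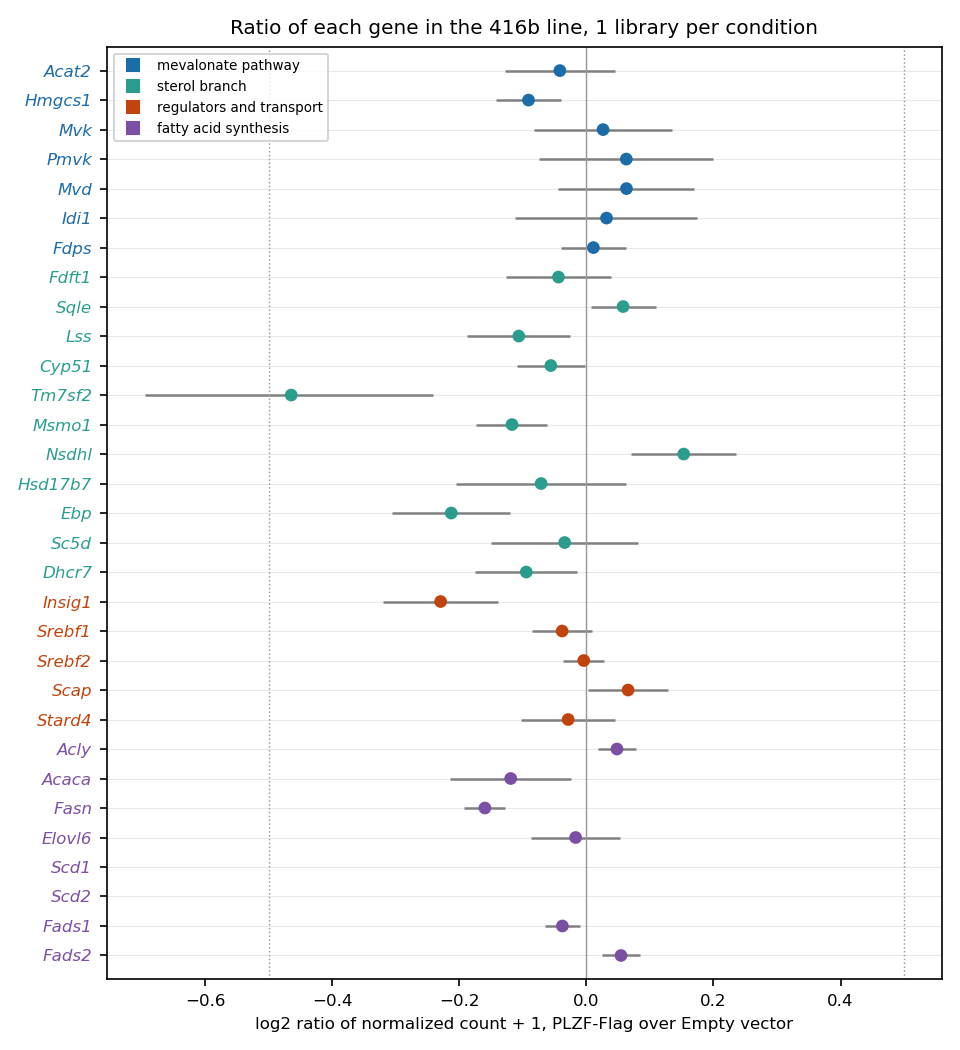
Points give each gene's ratio between the PLZF-Flag and Empty vector libraries of 416b on the log2 scale and bars its 95% exact interval on the reads, with dotted lines at -0.5 and 0.5 and colors for the 4 roles. No point reaches a dotted line, Tm7sf2 lies lowest at -0.46 and Nsdhl highest at 0.15, and Scd1 and Scd2 have no point because Scd1 was not listed and Scd2 was below a mean of 10.

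Set side by side, a rise of PLZF in 416b and its loss in GMPs gave opposite signs for 14 of the 29 genes (48.3%), beside 47.6% of 11242 genes with a value in both. The share of the members is close to that background. For 9 genes the 416b interval left out 0 and the GMP genotypes did not overlap, where 15.4% of the 11242 genes met both conditions. Of these 9, Tm7sf2, Insig1, Sqle and Fads1 had opposite signs, and Hmgcs1, Ebp, Scap, Acaca and Fads2 had the same sign, a split near that over all genes meeting both conditions (44.1% opposite and 55.9% the same). Tm7sf2 and Insig1 had the lowest ratios in 416b and were 2 of the 3 genes with the highest log2 fold changes in GMPs, and neither passed the GMP test. Tm7sf2 differed by -0.46 and 0.47, and Insig1 by -0.23 and 0.43. Srebf1, the other of those 3, was at -0.04 in 416b.

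**Figure D4:**
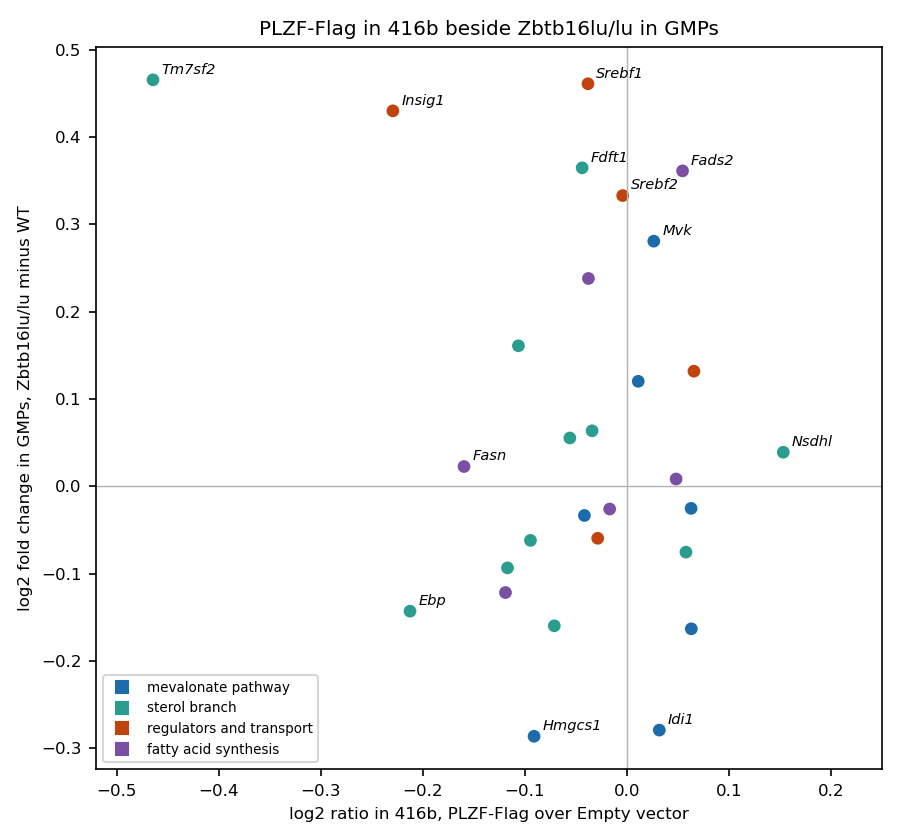
Each point is 1 of 29 genes, with its log2 ratio in 416b (PLZF-Flag over Empty vector) on the horizontal axis and the log2 fold change of Zbtb16lu/lu minus WT in GMPs on the vertical axis, colored by role. Tm7sf2 (-0.46, 0.47) and Insig1 (-0.23, 0.43) lie in the upper left corner, Hmgcs1 (-0.09, -0.29) and Idi1 (0.03, -0.28) lie lowest, and Srebf1, Fdft1, Fads2 and Srebf2 lie high, at 0.46, 0.36, 0.36 and 0.33, with horizontal values between -0.04 and 0.05.

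Per kb of exon, the most abundant member in WT GMPs was Acly, at 3205 ± 242 normalized counts per kb (SD, n = 2), followed by Scd2 at 1908 ± 110, Fasn at 1567 ± 460 and Ebp at 1017 ± 80.4. The WT libraries of Scd2 and Fasn overlapped, at 1986 and 1830 against 1892 and 1242, so their order is within the spread, whereas Acly lay above both in every library. By their means, the lowest were Scd1 at 32.7 ± 1.42, Lss at 72.3 ± 17.0, Hsd17b7 at 78.9 ± 3.86 and Idi1 at 85.4 ± 21.3. Lss overlapped with both Hsd17b7 and Idi1, and Hsd17b7 (76.2 and 81.6) lay inside the range of Idi1 (70.4 and 100). Idi1 also overlapped with Fads2 and Fdft1, so the order of these genes is within the spread. The order depends on exon lengths merged over all transcripts: Lss (10.8 kb) had a WT mean of 780 normalized counts, and Pmvk (1.71 kb) one of 581. Scd2 exceeded Scd1 by 57.7- to 70.4-fold per kb across the 4 libraries, and reads that fit either of these close copies can be lost or assigned unequally. Between the SREBP genes, Srebf1 was the higher in GMPs, 1.46- to 1.70-fold over Srebf2 per kb. In 416b the order was inverted, with Srebf2 1.61-fold over Srebf1 in Empty vector. The other genes lay between 97.3 (Fads2) and 668 (Scap) normalized counts per kb in WT.

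The desaturases set the line and the sorted progenitors apart, although the tables were normalized separately, from different library kits, and no test between them was made. In 416b, Fads2 and Fads1 were the most abundant members, at 5929 and 4919 normalized counts per kb in Empty vector and 6157 and 4792 in PLZF-Flag. Scd2 was at 0.997 and 1.51 per kb, and Scd1 was not listed. In WT GMPs the order was the reverse, with Scd2 at 1908, Fads1 at 318 ± 7.09 and Fads2 at 97.3 ± 2.73 per kb. Fads3, a further member of the Fads cluster, had 3726 and 3521 normalized counts in 416b and 44.4 to 47.7 in WT GMPs. Tm7sf2 also ranked differently, 29th of 30 genes in 416b at 106 per kb in Empty vector and 13th of 31 in WT GMPs at 314 ± 40.0. Acly and Fasn were among the 5 most abundant members in both tables.

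**Figure D5:**
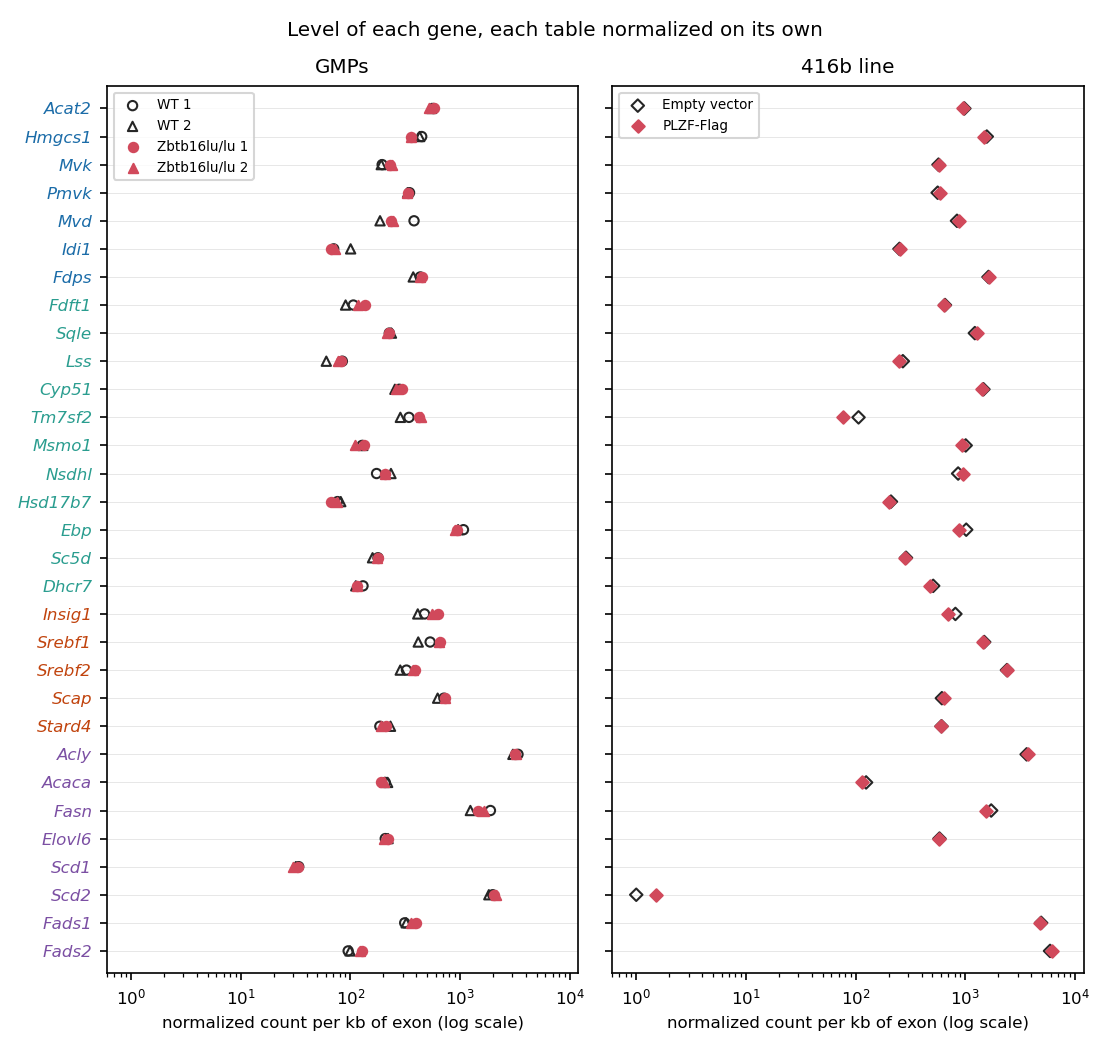
Each symbol is the level of a gene in 1 library as normalized counts per kb of exon on a log axis, with the 4 GMP libraries on the left and the 2 libraries of 416b on the right. Fads1 and Fads2 lie farthest right in 416b and Scd2 farthest left, near 1, whereas in GMPs Scd2 is among the 3 most abundant; Scd1 is blank in 416b because it was not listed.

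Other genes of lipid metabolism gave no call in GMPs either, where limma called 0% of all 20531 genes tested. In SREBP processing and the sterol response 0 of 14 genes passed, 9 being positive and 5 negative. Abcg1, a cholesterol exporter and target of liver X receptors, had 535 and 909 normalized counts in WT and 1156 and 1017 in Zbtb16lu/lu (log2 fold change 0.64 ± 0.23, adjusted p = 0.47), and its difference was 0.25 without WT 1 and 1.02 without WT 2. Nr1h3, which encodes liver X receptor alpha, had 113 and 108 in WT against 60.2 and 67.9 in Zbtb16lu/lu (-0.78 ± 0.29, adjusted p = 0.47). Neither gene overlapped between genotypes, and they differed in opposite directions. Nr1h2, which encodes liver X receptor beta, had 1645 and 1385 in WT against 1928 and 2244 in Zbtb16lu/lu (0.46 ± 0.14). Its difference was 0.12 after the GC content and length correction. Abca1, another cholesterol exporter, was also higher without overlap at 0.63 ± 0.26, or 0.35 without WT 1 and 0.90 without WT 2. In that list 6 genes lay higher without overlap and 3 lower, where 21.7% and 22.1% of all genes did. In 416b Abcg1 and Nr1h3 had few counts, 17.6 and 28.1 for Abcg1 and 3.03 and 3.30 for Nr1h3.

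The remaining lists likewise had 0 genes past the test, where 0% of all genes passed. In elongation, desaturation and activation, 6 of 15 genes were positive, from Elovl7, an elongase, at -0.42 ± 0.20 to Lpin1, a phosphatidate phosphatase of triglyceride synthesis, at 0.71 ± 0.30. Lpin1 had 196 and 394 normalized counts in WT and 468 and 446 in Zbtb16lu/lu, so its difference was 0.21 without WT 1 and 1.22 without WT 2. For the non-sterol and late sterol branches, 2 of 7 were positive, from Pdss1 (ubiquinone side chain) at -0.30 to Aacs (acetoacetyl-CoA synthetase) at 0.28. Without WT 1 these were -0.45 and 0.50, and without WT 2 they were -0.14 and 0.07. For acetyl-CoA and NADPH supply, 3 of 7 tested were positive, from Acss2 (acetyl-CoA synthetase) at -0.23 to Acacb (the mitochondrial acetyl-CoA carboxylase) at 0.52, which was 0.24 without Zbtb16lu/lu 2 and 0.81 without Zbtb16lu/lu 1, and for fatty acid oxidation 2 of 8 tested, from Hadhb at -0.27 to Acadvl at 0.11. Hadhb was at -0.44 without WT 1 and -0.10 without WT 2, Acadvl at 0.19 and 0.03, and Acss2 at -0.35 without Zbtb16lu/lu 1 and -0.11 without Zbtb16lu/lu 2. In 416b, Abcg1 at 0.65 (interval -0.28 to 1.59) was the 1 gene of these lists with a mean of at least 10 past a log2 ratio of 0.5, and Acss2 had 1135 and 1327 normalized counts, a log2 ratio of 0.22 (0.10 to 0.34).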

How the data were processed

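RNA-seq of GMPs (2 libraries per genotype) and of 416b cells (1 per condition) was used; the chromatin assays of the series were not analysed here. The signal values deposited by the authors are reads mapped to mm10 with subread-align, counted with featureCounts 1.5.0 and divided by DESeq2 size factors; the annotation is not given in the sources used here. The supplement states 3 RNA extractions per genotype, and 2 columns each were present. Columns that hold the authors' own means, log values and test results (fold changes with raw and adjusted p-values) were not used. Values were whole multiples of 1 read within 0.01 for 100% of GMP values and for 84.8% and 85.5% in 416b, and reads were rounded from these; in 2 GMP columns 1 read is worth within 1% of 1, so recovered reads and values are nearly equal there. One 416b row without a gene name was left out.

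GMP values were tested with limma 3.58.1 (trend) on log2(value + 1), two-sided, threshold 0.08 as in the study, so that fold changes of low genes are understated. edgeR 4.0.16 and DESeq2 1.42.0 on recovered reads were alternatives. The fits were first tested on simulated data. For 416b, log2 ratios had a pseudocount of 1. Exon lengths, GC content and gene positions are from GENCODE M21 (GRCm38). Exons were merged over transcripts for the lengths, and GC content is that of the longest transcript of each gene. All 31 members are named, and in each related list the genes with the highest and lowest GMP fold change. Fads3, Nr1h2, Abca1 and the genes that share exon bases with members were named after their values or overlaps were seen. Members and lists were chosen with earlier results of these data known. R 4.3.3, Python 3.11.15, numpy 2.4.6, pandas 2.3.3 and scipy 1.17.1 were used.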

Additional observations from a re-analysis of the deposited data

How the results depend on the processing

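No member was called under pseudocounts of 0.1 or 10, no filter, a mean of at least 100, equal library totals, no intensity trend, edgeR with either scaling, DESeq2, a threshold of 0.05 or a correction for GC content and length (added after seeing the data). Leaving out 1 library gave 0 to 8 members called, medians from -0.019 to 0.12, and 10 to 18 members higher and 6 to 12 lower without overlap, where 30.9% to 40.9% of all genes were higher and 31.5% to 42.6% lower, as leaving out a library can only add such genes; the counts of 8 and 4 came without WT 1 and WT 2, and the median was 0.15 between WT 2 and Zbtb16lu/lu 1 alone. No paired analysis was possible because the genotypes share 1 date only. Signs turned by more than a standard error for some members, and the cause was not tested. Over the fits without 1 library, Mvd ran from -0.68 to 0.35, Nsdhl from -0.18 to 0.26, Lss from -0.081 to 0.40, Stard4 from -0.22 to 0.10 and Fasn from -0.28 to 0.33. Within the shared date Lss was at -0.13, Fasn at -0.20, Idi1 at 0.036, Fdps at -0.012 and Cyp51 at -0.098, and between the other libraries Mvd was at 0.32 and Nsdhl at -0.17. With the GC content and length correction Scap was at -0.16 and Fasn at -0.21. In 416b, upper quartile scaling left 3 intervals above 0 in place of 5, since it shifts all ratios by -0.0085 and those of Sqle and Scap then include 0, and no filter adds Scd2 past the fold (1 gene). With 2 libraries per genotype and 1 per condition, small differences cannot be resolved.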
